A study of Caenorhabditis elegans with 4 samples.

Results

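Chromosome III of Caenorhabditis elegans carried 205 of the 1251 MIS-12 peaks in the list deposited for the whole series, called the combined list here. It carried 127 of 694 peaks in the list of ChIP replicate 1 and 167 of 746 in that of replicate 2. A peak is a stretch of the genome where the peak caller MACS found more immunoprecipitated DNA than its background model allowed, and the members were chosen by chromosome alone. The 2 ChIP samples came from formaldehyde-fixed mixed-stage embryos of the wild-type strain N2, a mixed male and hermaphrodite population, and were precipitated with SDQ2966, a polyclonal antibody raised in rabbits against part of MIS-12 and affinity-purified. Embryos of mixed stage hold cells in every phase of division, so each list averages over them. The series also holds 2 input samples, whose profiles are not analysed here. No label says whether the replicates came from separate cultures, and any spread between them may be technical.

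MIS-12 belongs to the outer kinetochore, where its complex joins the centromeric chromatin to the proteins that grip spindle microtubules. Most animals build kinetochores at one centromere per chromosome. The chromosomes of C. elegans are holocentric, with kinetochores assembled along the whole length of each mitotic chromosome on nucleosomes that carry the CENP-A homologue. Each worm autosome has a gene-dense centre with little recombination, flanked by arms that are richer in repeated sequence and recombine more.

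Coordinates below are those of WormBase WS220, the build named in the file headers, and count from base 1. Genes under the peaks were not assigned and no sequence is shown, since no annotation or genome of that build was used here. The lists give a score to each peak, whose definition is not stated. On III it ran from 50.5 to 3100 in replicate 1, from 51.7 to 3148.5 in replicate 2 and from 1.53 to 56.0 in the combined list. The combined scores are on another scale and are read only within that list. The read depth behind the peaks is unknown, so weak peaks that are missing from a list cannot be told apart from peaks that its depth did not reach.

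The highest scores on III belonged to a small set of wide peaks that both replicates placed at nearly the same bases. The 12 highest-scoring combined peaks all overlapped peaks of both replicates, with a median width of 3078 bp. III was divided into 3 sections of equal length, with borders after bases 4594577 and 9189154, and 6 of the 12 lay in the left section, 2 in the middle and 4 in the right. The highest (3334256 to 3337015, score 56.0) was a single 2740-bp peak in replicate 1 and a single 2688-bp peak in replicate 2, each with a score of 3100. The second (2497017 to 2501799, score 46.5) again met 1 peak in each replicate, both with a score of 3100, that began at the same base, 2496969, and ended at 2501889 and 2501903. A score of exactly 3100 occurred 4 times on III in replicate 1 and 5 times in replicate 2. Since the value recurs exactly, equal scores of 3100 are not read as equal enrichment, although 1 replicate 2 peak on III scored higher (3148.5).

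The third, at 7444280 to 7448139 (score 45.1), was divided into 2 adjoining peaks in each replicate, with scores of 3100 and 3098 in replicate 1 and of 3100 and 3148.5 in replicate 2. The fourth (1299647 to 1303042, score 40.1) was likewise divided in each replicate, into a peak of 3100 and a weaker one of 858 in replicate 1 and 1308 in replicate 2. The fifth (1017266 to 1020662, score 37.1) scored 3096 and 3100. These 5 regions held every replicate score of 3000 or more on III, 6 peaks in each list, 4 in the left section and 2 in the middle. The right section had none.

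Below them the replicates were further apart. A narrow peak of 608 bp at 931125 to 931732 (score 36.9) scored 1186 in replicate 1 and 1400 in replicate 2. In the right section, neighbouring peaks at 10224475 to 10225500 (score 36.3) and 10225971 to 10227695 (score 27.4) scored 1201 and 391 in replicate 1, against 2349 and 2144 in replicate 2. The peak at 3897054 to 3897775 (score 35.2) held 2 peaks in each replicate, of 314 and 129 in replicate 1 and of 840 and 352 in replicate 2. That at 7594608 to 7597207 (score 31.4) also held 2 in each, of 1159 and 276 and of 1785 and 485. In each of these 5 peaks the higher score was that of replicate 2. The other 2 of the 12 were the widest combined peaks of the chromosome, 7986 and 7002 bp, and belonged to a dense group near the right end that is described below.

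**Figure D1:**
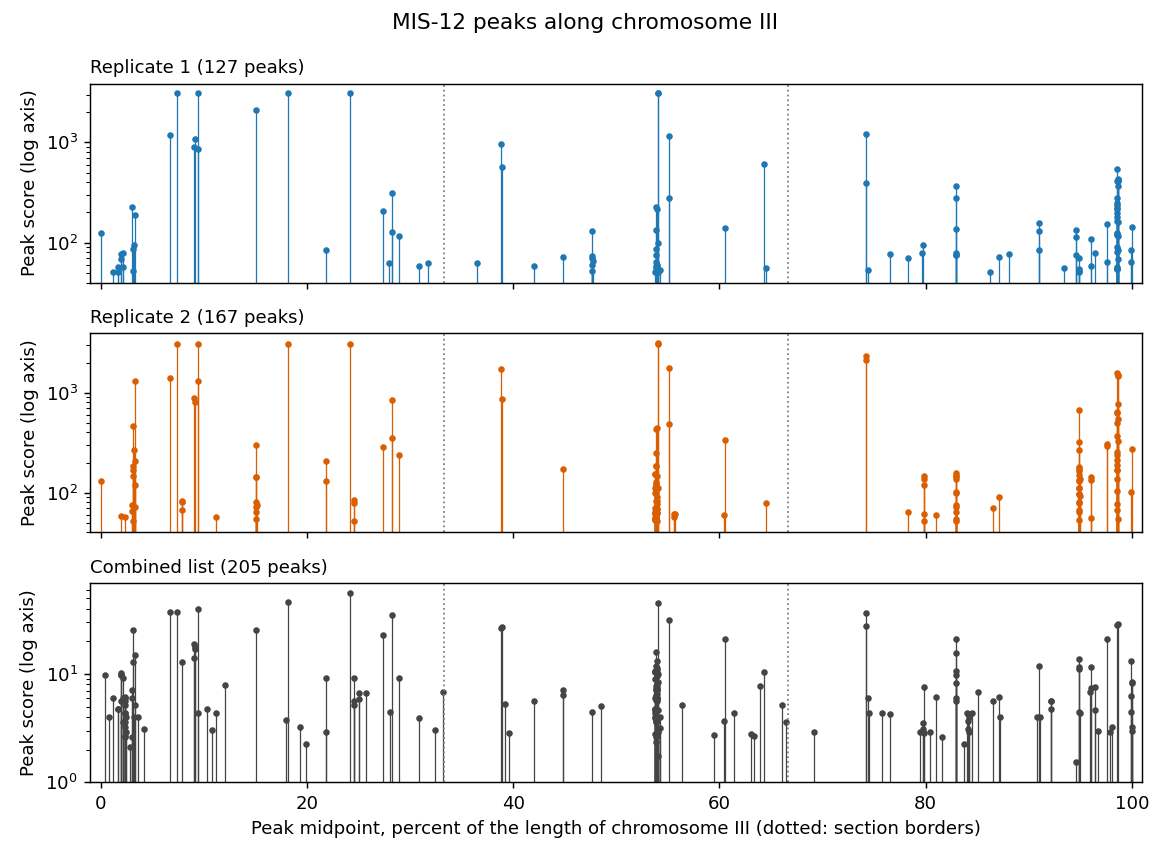
Each point is a peak on chromosome III, placed by its midpoint as a percent of chromosome length (x axis) and its score on a log axis (y axis), for replicate 1 (127 peaks), replicate 2 (167) and the combined list (205). Dotted lines divide the sections; the points at the top of both replicate panels stand at about 3100, and the vertical stacks of points are dense groups.

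Most peaks were narrow, and their widths were close to those elsewhere in the genome. Replicate 1 peaks on III had a median width of 344 bp, against 329 bp on the other 5 nuclear chromosomes. For replicate 2 the medians were 298 and 290.5 bp, and for the combined list 270 and 274 bp. Peaks of 2000 bp or more numbered 8 of 127, 6 of 167 and 17 of 205, or 6.30%, 3.59% and 8.29%. Over all nuclear peaks 7.93%, 6.58% and 5.93% were that wide. In the combined list these 17 peaks held 47.1% of the sequence covered on III, and the wide peaks of the other chromosomes held 35.4% of theirs. In both replicates the order was the opposite, with 34.5% on III and 44.96% on the others in replicate 1 and 23.2% and 42.8% in replicate 2. Width and score rose together within each list on III, with a Spearman rho across peaks of 0.72 (n = 127) in replicate 1. It was 0.87 (n = 167) in replicate 2 and 0.65 (n = 205) for combined peaks. These are descriptions, since the peaks of a list share a library and a caller.

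Of the replicate 1 peaks on III, 80 of 127 (63.0%, Wilson 95% interval 54.3 to 70.9) shared 1 bp or more with a replicate 2 peak, against 60.8% of that whole list. In the other direction 84 of 167 did (50.3%, 42.8 to 57.8), against 56.2% of the whole list. Both shares lay near those of the whole lists, and III had the lowest share of the 6 nuclear chromosomes in replicate 2, below II at 54.5% and X at 55.1%. Intervals here and below cover only counting error, and peaks that lie next to each other are not independent. By covered sequence the replicates shared 60.7 kb on III, 55.8% of the bases that either covered. On the other 5 chromosomes together the share was 64.9%, with II lower (50.7%) and I highest (77.4%).

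Sharing on III rose with score. In the lowest score quartile, 8 of 32 replicate 1 peaks (25.0%) and 8 of 42 replicate 2 peaks (19.0%) were found in the other replicate. In the highest quartile 31 of 32 (96.9%) and 41 of 42 (97.6%) were. The median score was 163.6 for shared and 62.2 for unshared peaks in replicate 1, and 247.5 and 75.6 in replicate 2. Shared peaks were also wider, with medians of 481 against 205 bp in replicate 1 and of 447 against 221 bp in replicate 2. The whole lists showed the same, so this was not particular to III. Their median scores were 166.2 and 64.4 in replicate 1 and 305.05 and 74.05 in replicate 2. Their median widths were 478.5 against 241.5 bp and 503 against 203 bp.

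Few strong peaks were found in 1 replicate alone. The strongest of replicate 1 was a 2264-bp peak at 8861657 to 8863920 with a score of 613, the only one of its 8 wide peaks without a replicate 2 counterpart, and it met 1 combined peak of score 10.3. It was followed by peaks at 12541829 to 12542161 (score 157.4, combined score 11.8) and at 13032110 to 13032308 (133.1, combined score 1.53). In replicate 2 the 3 strongest were a 585-bp peak at 13080494 to 13081078 (score 267), a 556-bp peak at 7417362 to 7417917 (score 248) and a 349-bp peak at 13586060 to 13586408 (score 212). All 3 lay inside dense groups in which replicate 1 also had peaks, whereas those of replicate 1 lay outside them. These groups, described below, were picked for at least 8 peaks in any list. Replicate 2 supplied 5 such loci and replicate 1 only 1, so the contrast follows in part from that choice.

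**Figure D2:**
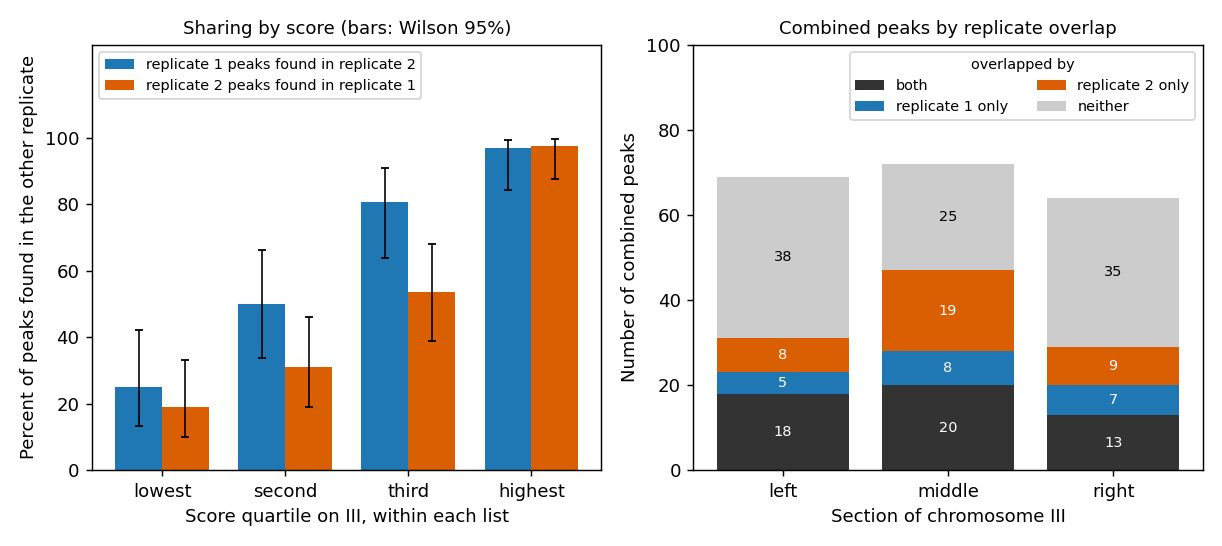
Left, percent of peaks on III found in the other replicate (y axis) by score quartile within each list (x axis), with Wilson 95% intervals: the share climbs from 25.0% and 19.0% in the lowest to 96.9% and 97.6% in the highest quartile. Right, number of combined peaks in each section of III (y axis), stacked by the replicate lists that overlap them: the middle section has 19 peaks found in replicate 2 only, against 8 in the left and 9 in the right.

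Where 1 peak of replicate 1 met exactly 1 peak of replicate 2, the borders agreed closely. There were 49 such pairs on III, 15 in the left section, 17 in the middle and 17 in the right, and 46 of them met a combined peak. Their starts differed by a median of 17 bp and their ends by 22 bp, and in 42 pairs the midpoints were within 100 bp. The median midpoint distance was 19.5 bp on III and 16.5 bp over the 291 such pairs of all nuclear chromosomes. The replicate 2 score was the higher in 39 pairs, the lower in 6 and equal in 4. Divided by the replicate 1 score, the replicate 2 score had a median ratio of 1.42 (interquartile range 1.02 to 2.05), close to the 1.43 over all nuclear pairs. With the depths unknown, the ratio does not show stronger enrichment in replicate 2.

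The scores of these pairs rose together, with a Spearman rho of 0.85 (n = 49 pairs) and of 0.78 among the 43 pairs without scores of 3000 or more. Single pairs stood far off. The pair at 13075405 to 13075619 in replicate 1 scored 51.1 there and 319 in replicate 2, a ratio of 6.24, but these 2 peaks had only 16.5% of their joint span in common. The pair at 10226037 to 10227708 scored 391 and 2144 (ratio 5.48) and covered 97.2% of the joint span together. At 13447127 to 13447372 the scores were 63.5 and 305 (ratio 4.80). In the other direction the widest gap was at 415188 to 415872, with 228 in replicate 1 and 65.6 in replicate 2 (3.48 times higher in replicate 1). The next were a pair at 7418580 to 7419002 (86.9 and 57.6, 1.51 times) and one at 1260249 to 1261639 (1089 and 817, 1.33 times).

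**Figure D3:**
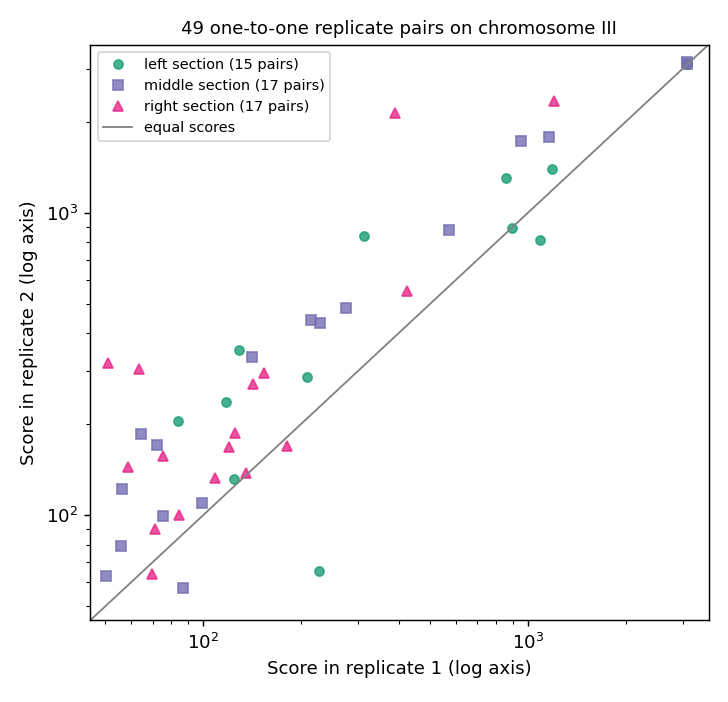
Score in replicate 1 (x axis, log) against score in replicate 2 (y axis, log) for the 49 one-to-one pairs on III, marked by section of the chromosome, with a line of equal scores. Of the pairs, 39 lie above the line, and the point farthest below it is the pair with scores of 228 and 65.6.

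Of the 205 combined peaks, 51 overlapped peaks of both replicates (24.9%, Wilson 95% interval 19.5 to 31.2), against 27.0% of the whole list. Another 20 overlapped replicate 1 only (9.76%, whole list 8.47%) and 36 replicate 2 only (17.6%, 13.0 to 23.4, whole list 12.8%). The other 98 overlapped neither (47.8%, 41.1 to 54.6, whole list 51.7%). Only the share found in replicate 2 alone had an interval that left out the value of the whole list, and 18 of its 36 peaks came from 1 dense group described below. The 51 peaks found in both had medians of 15.1 by score and 764 bp by width and held 58.9% of the covered sequence. The 98 found in neither had medians of 4.31 and 199 bp, and held 16.5%. The strongest of the 98 were at 55760 to 55981 and 273528 to 273984 (score 9.70 each) and at 13783278 to 13783731 (score 8.33). These lay towards the ends of the chromosome, but the highest of the 98 in the middle section scored little less (7.78).

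Peaks on III were gathered into groups more than on the other chromosomes in the replicate lists. In replicate 1, 73.2% of peaks on III had another midpoint within 5 kb, against 57.6% of all nuclear peaks, and in replicate 2 it was 85.6% against 72.1%. In the combined list the share was 62.9% against 61.5%, near the whole list and below that of V (66.8%). Peaks with at most 2 kb between them were joined into loci, which gave 63 loci for replicate 1, 45 for replicate 2 and 111 for combined peaks. The mean number of peaks per locus was 2.02, 3.71 and 1.85, in each list the highest of the 6 nuclear chromosomes. These means leaned on single places, since the largest locus held 28, 39 and 43 peaks. Of the loci, 39, 24 and 83 held only 1 peak. The rank among chromosomes was not recalculated without the largest loci. No test was made of these differences, since peaks of a group are not independent of each other.

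A group of at least 8 peaks in any list occurred at 6 places on III. Together these spanned 78.5 kb, or 0.570% of the chromosome. They held 52 of the 127 replicate 1 peaks (40.9%), 100 of the 167 replicate 2 peaks (59.9%) and 65 of the 205 combined peaks (31.7%). High shares follow in part from this choice, since the places were picked for their number of peaks. Replicate 2 supplied 5 loci with at least 8 peaks, the combined list 2 and replicate 1 only 1. Its larger share therefore does not show that replicate 2 was more grouped. Shares in groups picked alike on the other chromosomes were not calculated. The lists divided these places into peaks in different ways.

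The group with the most peaks lay in the middle section (7405272 to 7441171). It held 43 combined peaks, 39 of replicate 2 and 13 of replicate 1. The peaks were weak, with a median score of 6.07 in the combined list (highest 16.0), 76.2 in replicate 2 (highest 442) and 59.3 in replicate 1 (highest 229). Their midpoints were a median of 767 bp apart in the combined list (interquartile range 523 to 1146) and 908 bp in replicate 2 (412 to 1226), an uneven spacing. Combined peaks covered 67.2% of the span, replicate 2 peaks 34.7% and replicate 1 peaks 19.3%. Of the 43, 12 met both replicates, 3 replicate 1 only, 18 replicate 2 only and 10 neither. Of the 39 replicate 2 peaks 9 were found in replicate 1. The strong peak at 7444280 to 7448139 began beyond the right border of this group, so weak and strong peaks lay side by side in all 3 lists.

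The group near the right end (13584176 to 13599327) had the opposite division. The combined list had 2 very wide peaks there, at 13584182 to 13592167 (7986 bp, score 28.3) and 13592255 to 13599256 (7002 bp, score 28.95). Replicate 1 had 28 peaks over the same span, with a median width of 353.5 bp and scores from 54.7 to 537. Replicate 2 had 21, with a median width of 349 bp and scores from 54.6 to 1570. The replicates covered 74.1% and 88.9% of the span and the combined peaks 98.9%. Of the 28 replicate 1 peaks 25 overlapped replicate 2, and of the 21 replicate 2 peaks 17 overlapped replicate 1, so that most of this group was shared.

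Other groups also differed in how they were divided. At 2077696 to 2082402, replicate 1 had a single 5075-bp peak with a score of 2123 and the combined list a single 5024-bp peak (score 25.4). Replicate 2 had 8 separate peaks there, with scores of 54.7 to 297, which covered 50.3% of the span. At 13074921 to 13085659 replicate 2 had 20 peaks (scores 53.2 to 665) and the combined list 5, of which 3 were 2898 to 3476 bp wide. Replicate 1 had 4 weak peaks (51.1 to 70.6), all at the left side between 13075405 and 13077450. At 11429576 to 11436710 the lists held 6, 11 and 6 peaks, for replicate 1, replicate 2 and the combined list. Their highest scores were 369, 158 and 21.0. The last group (322642 to 327512) was seen mostly in the combined list, with 8 peaks of score 2.59 to 5.99, 1 replicate 2 peak (score 56.8) and no replicate 1 peak.

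**Figure D4:**
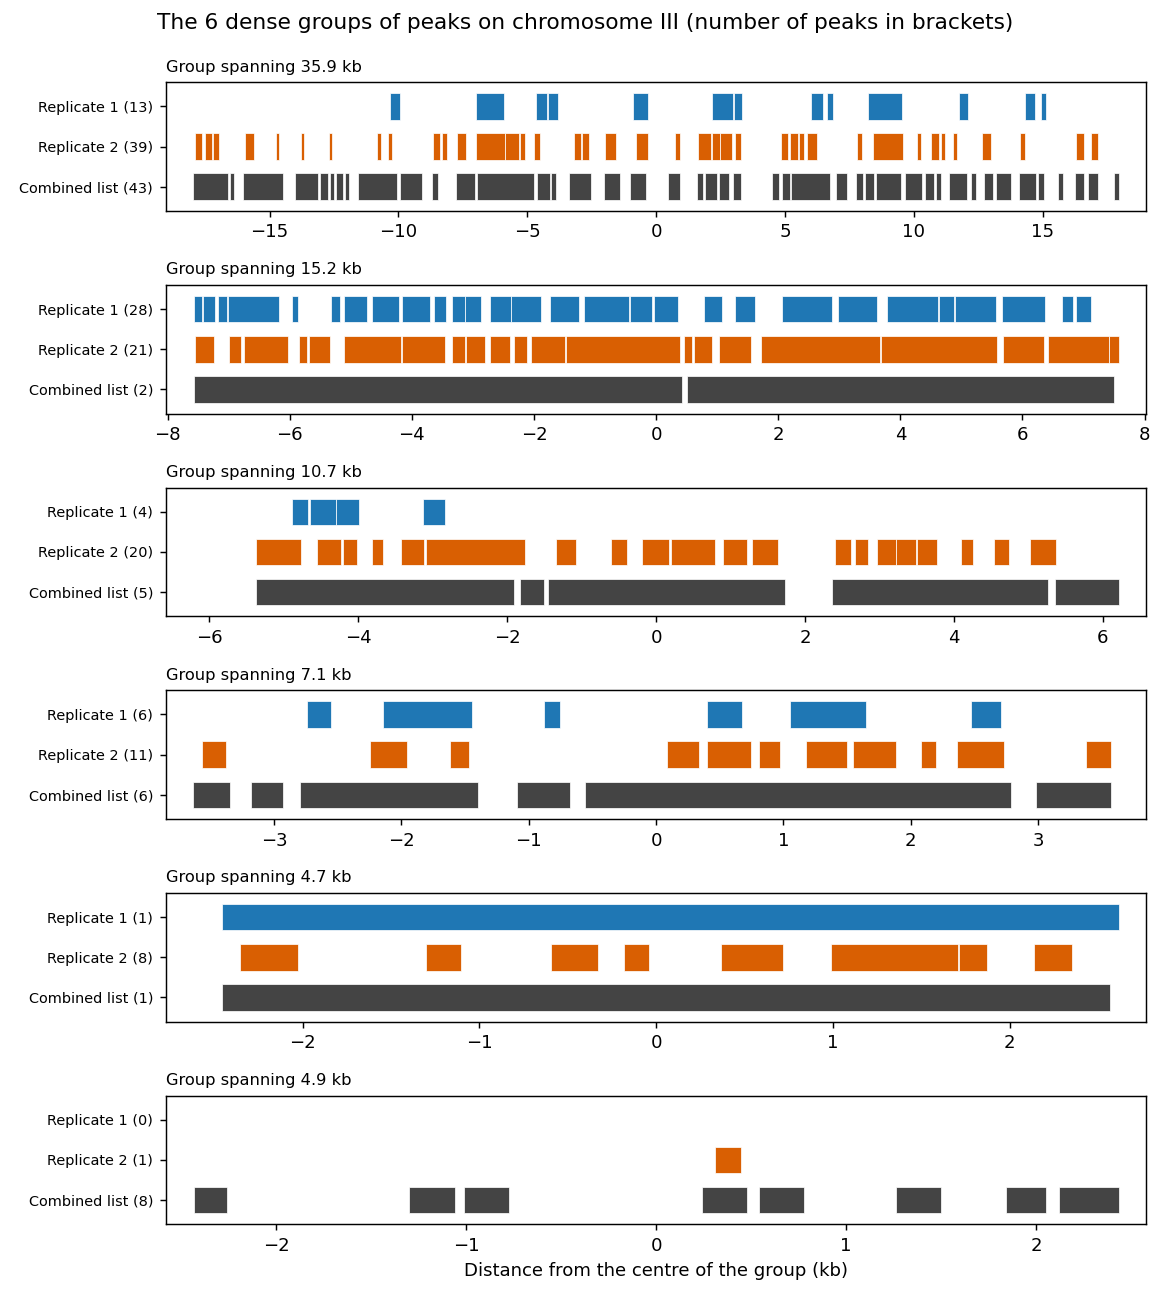
Peaks of the 6 dense groups in the 3 lists, drawn to scale as bars against the distance from the centre of each group in kb (x axis), with the number of peaks in brackets (y axis labels). The 35.9-kb group holds 13, 39 and 43 peaks, whereas the 15.2-kb group holds 28 and 21 replicate peaks but 2 wide combined peaks.

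To compare regions without counting each fragment of a group, all peaks of the 3 lists were joined into common loci, again with at most 2 kb between peaks. This gave 122 loci on III, of which 49 lay in the left section, 28 in the middle and 45 in the right. All 3 lists had a peak in 32 of them (26.2%), 16 in the left section, 7 in the middle and 9 in the right. These 32 had a median span of 2733 bp. Another 16 loci were made of replicate 1 and combined peaks and 8 of replicate 2 and combined peaks. The combined list alone had 55 (45.1%), with a median span of 196 bp, and 21 of them were in the left section, 12 in the middle and 22 in the right. Only 3 loci had peaks of both replicates and none of the combined list. One of these was the left end of the chromosome, where the peaks ran from base 2 to base 179 in replicate 1 (score 124.65) and from base 2 to base 195 in replicate 2 (score 132.1). Repeats at that end were not examined, and whether these peaks reflect MIS-12 was not tested. At the right end, the last replicate peaks (13782280 to 13782958, score 142.4, and 13782105 to 13782937, score 273) did meet a combined peak.

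Between the middle section and the outer sections, combined peaks and combined loci gave different pictures. The sections are of equal length and were not placed at the borders between arms and centre. The middle section had 72 combined peaks, or 15.7 per Mb, against 15.02 per Mb in the left section and 13.9 in the right. The log2 ratio of the middle to the ends was 0.11 (exact 95% interval -0.32 to 0.54). Of these 72 peaks 43 belonged to the group at 7405272 to 7441171. Outside it the middle section had 29 combined peaks (6.31 per Mb), 14 replicate 2 peaks (3.05 per Mb) and 21 replicate 1 peaks (4.57 per Mb). Without that group the log2 ratio for combined peaks was -1.20. The group was chosen for its size in these data, so leaving it out could only lower the ratio, and the groups of the outer sections were kept. Counted as loci, with no group left out, the log2 ratio was -0.86, with 24 loci in the middle section, 46 in the left and 41 in the right. In replicate 1 the loci numbered 19 in the middle, 24 in the left and 20 in the right, and in replicate 2 they numbered 11, 21 and 13. Replicate peaks were also fewer per Mb in the middle than in the pooled outer sections. The values were 7.40 against 10.1 in replicate 1 (log2 ratio -0.45) and 11.5 against 12.4 in replicate 2 (-0.10). Only the right section lay above the middle, with 13.7 per Mb in replicate 1 and 15.2 in replicate 2. The left section lay below it in both lists, with 6.53 and 9.58.

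Sharing in the middle section differed inside and outside that group. In the section as a whole 19 of 53 replicate 2 peaks (35.8%, Wilson 95% interval 24.3 to 49.3) were found in replicate 1, against 61.4% in the left section and 54.3% in the right. Inside the group 9 of 39 were found (23.1%), and outside it 10 of 14 (71.4%). The median replicate 2 score was 76.2 inside and 252 outside. In replicate 1 the shares were 8 of 13 inside and 10 of 21 outside.

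The outer sections were not alike. In the left section, combined peaks were densest in the first Mb (36 peaks in 18 loci), where 1 of its 6 peaks among the 12 highest also lay (931125 to 931732). In the right section, replicate peaks crowded into the last window of 0.784 Mb, which held 43 of the 63 replicate 1 peaks and 48 of the 70 replicate 2 peaks of that section. Most belonged to the dense groups at 13584176 to 13599327 (28 in replicate 1 and 21 in replicate 2) and 13074921 to 13085659 (4 and 20). Counted as loci, the window had 8 in replicate 1 and 6 in replicate 2, against 10 and 7 in the first Mb. The last window is shorter than the first, so these counts do not show fewer loci per Mb at the right end. The median replicate score was higher in both outer sections (121 left and 108.9 right in replicate 1, 143.5 and 137 in replicate 2) than in the middle (71.4 and 82.4). For replicate 2 this order turned without the group of 43 combined peaks, since its other 14 peaks of the middle section had a median of 252. In replicate 1 the 21 peaks outside the group had a median of 73.2, still below both outer sections. The combined list did not share this order, with medians of 5.89 in the left section, 5.99 in the middle and 5.17 in the right.

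Long stretches had no replicate peak. The longest, 8898070 to 10224467 (1326 kb), straddled the border between the middle and the right section. Both replicates had peaks on either side of it, of 234 bp each on its left and of 1201 and 2349 by score on its right. The combined list had 3 peaks within it, all weak (scores 2.92 to 5.16) and 196 to 266 bp wide. The stretch before the group of 43 peaks (6574453 to 7405315, 831 kb) held 1 combined peak, with a score of 5.10. Stretches of 658 kb (7678247 to 8336262) and 652 kb (4379238 to 5031479) held 2 each, with scores up to 5.16 and 6.86. Of these 4 stretches 2 lay wholly within the middle section and the other 2 crossed its borders, and none held a combined peak that scored above 6.86.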

How the data were processed

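MIS-12 ChIP-seq of mixed-stage N2 embryos was analysed from 3 deposited peak lists, 1 for each of 2 ChIP samples and 1 for the series. Per the file headers and their source column, peaks were called on WormBase WS220, with MACS for the ChIP samples and MACS v2 for the series. The aligner, control, threshold and pooling are not named in the headers or labels used here. The deposited value of each peak is a score that the authors did not define, and the other deposited values are the first and last base. No reads, counts or input profiles were used, so depth is unknown.

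Peaks on III were taken from each list and the lists were kept apart. Overlap meant at least 1 bp in common. Loci are peaks with at most 2 kb between them, and grouping means another midpoint within 5 kb. The highest peak end on any list (13783731) served as the length of III, and may run past its true end. Shares carry Wilson 95% intervals, and the ratio of middle to ends a Clopper-Pearson one, for counting error only. No test was made over peaks, which are not independent, and 2 replicates of 1 group allow none. Functions were tested on simulated lists. Python 3.11.15, numpy 2.4.6, scipy 1.17.1, pandas 2.3.3 and matplotlib 3.10.9 were used.

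Regions named are the 12 highest-scoring and 5 widest combined peaks, loci with at least 8 peaks, the 3 strongest unshared peaks of each list, the 3 pairs with the largest score ratio each way, and the first and last peaks. The regions, rules and settings were chosen with earlier results of these data known. The common loci, stretches free of replicate peaks and recalculations without dense groups were added later. Gene names were not used, since the table of genes at hand is on WBcel235.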

Additional observations from a re-analysis of the deposited data

How the results depend on the processing

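Each recomputed value was set against a range around the value reported. The range was the 95% interval for shares and for the log2 ratio, and the SD of the 2 replicates for the density. For the median combined width it was the SD of the 2 replicate medians, and for the number of loci a fixed fold change. These ranges are not alike, and the last 2 are not errors of the value itself. Of 43 recomputed values, 21 stayed within the range, 19 moved beyond it and 3 changed sign. All 3 concern the combined log2 ratio of the middle to the ends of III (0.11), which was -0.44 for the middle 50% against the outer 50% of the length, -0.86 for loci and -1.20 without the group of 43 peaks, a setting chosen after seeing the data. With 50% reciprocal overlap the shares found in the other replicate fell to 41.7% and 31.7%, the share of combined peaks found in both to 12.7%, and that found in neither was 72.2%. Among the highest-scoring 50% of each list the replicate shares were 82.5% and 59.8%, the mean of replicate peaks per Mb was 5.26 and the median combined width 481 bp. For loci the replicate 2 share was 77.8%, the grouped share 7.21% and the mean density 3.92 per Mb, against 10.7 ± 2.05 (SD, n = 2) for peaks. Within 2 kb the grouped share was 56.1%. Without the group of 43 peaks the replicate 2 share was 58.6% and the grouped share 53.1%. Without the 6 dense groups the mean density was 5.15 per Mb. Leaving out 1 replicate, 34.6% to 42.4% of combined peaks met the remaining list and 57.6% to 65.4% did not, and the density was 9.21 to 12.1. With 2 replicates, leaving 1 out cannot move the density beyond its SD, and keeping 50% of each list lowers it by design. Both outcomes were fixed in advance. The direction of several other changes was fixed too, so only their size is informative. Reciprocal overlap can only lower the shares found and raise the share found in neither. Leaving out 1 replicate can only raise both shares of combined peaks. A shorter distance can only lower the grouped share, and joining at 2 kb removes the closest neighbours before it is taken. Joining peaks or leaving out dense groups can only lower the density. No paired analysis was possible because the input samples that share the replicate numbers were not analysed here. With depth unknown, a peak missing from a list is not shown to be absent.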
